A study of Mus musculus with 8 samples.

Results

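The integrated stress response and serine synthesis genes described here are 10 genes chosen by name: Atf4, Ddit3, Trib3, Chac1, Sesn2 and Asns of the stress response, and Phgdh, Psat1, Psph and Mthfd2 of the serine and one-carbon pathway. They were chosen with earlier results of these data known, so shares set beside those of all genes describe them and are no independent test. They are 10 of 13790 genes that could be tested. Their probes were found through the transcript accession printed on the array, which gave 14 probes for the 10 genes, and all 14 were well above background on all 8 arrays. RNA was hybridised to Agilent arrays with 1 colour and 1 sample each, and came from neural stem and progenitor cells (NSPCs) that were derived from mouse embryonic stem cells and grown as floating neurospheres. Cells overexpressing the transcription factor NFIA were cultured together with control cells and both kinds were separated by fluorescence-activated cell sorting before RNA was taken. The 4 groups were control cells from primary neurospheres (PN_control, passage 0, day 6), NFIA-overexpressing cells from primary neurospheres (PN_NFIA, passage 0, day 6), control cells from secondary neurospheres (SN_control, passage 1, day 12) and NFIA-overexpressing cells from secondary neurospheres (SN_NFIA, passage 1, day 12), with 2 arrays in each. The promoter that drives NFIA, the number of clones behind the overexpressing line and the embryonic stem cell line are not given in the sources used here.

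The integrated stress response starts when kinases that sense amino acid shortage, unfolded protein, haem shortage or viral RNA phosphorylate the translation factor eIF2. General protein synthesis then drops while translation of ATF4 mRNA rises, and the ATF4 protein, with partners of the C/EBP family, switches on genes for amino acid synthesis, amino acid import and tRNA charging, together with Ddit3, Trib3, Chac1, Sesn2 and Asns. The serine pathway, which ATF4 also drives, makes serine from a glycolytic intermediate in consecutive steps catalysed by PHGDH, PSAT1 and PSPH, and MTHFD2 works downstream of serine in mitochondrial one-carbon metabolism; in the brain, radial glia and astrocytes are the main makers of serine.

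Values are given as log2 of the background-subtracted signal minus log2 of the 75th percentile of the same array, so 0 is the level of a fairly bright spot and each unit is a doubling. Probes differ in efficiency, so levels were compared only between arrays and never between genes. A gene is said to have risen or fallen only where its adjusted p (limma, Benjamini-Hochberg over all 13790 genes) was under 0.05. The labels do not say whether the 2 arrays of a group came from separate cultures, so p-values measure the spread between arrays, which may be technical.

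The labels and files conflict in ways that bear on every value. Only 1 of the 8 columns in the deposited value table matched the scanner file attached to its own sample, and 7 matched the file of another sample, with a lowest matching correlation of 0.9998. Arrays were therefore assigned as in the value table. Titles and source names also disagree: the 4 samples titled as controls are sourced to the NFIA OE line, and PN_NFIA 1 and SN_NFIA 2 to WT. Samples were grouped by title. With the attached files in place of the matched ones, 0 genes passed the limma test in any comparison (78 had an unadjusted p under 0.05 for passage and 304 for NFIA) and the passage differences of Chac1 and Sesn2 turned positive, at 0.26 and 0.13. On the 1 slide used, by 1 assignment of arrays, primary and secondary samples lay in different rows and NFIA and control samples in different columns. By the value table PN_control 1 is the array attached to SN_control 2, so this layout cannot hold under both assignments. Where it holds, the place on the slide and the groups cannot be told apart. The 75th percentile of the arrays lay between 302.5 and 619.1, and between 45.38% and 56.44% of spots were well above background, with SN_control 1 at the low end of both. Nfia itself measured -1.30 and -0.30 in PN_control, -0.24 and 0.93 in PN_NFIA, 1.00 and 0.61 in SN_control, and 1.70 and 1.62 in SN_NFIA. It was higher in every NFIA array than in the control arrays of the same passage, but secondary control cells overlapped primary NFIA cells, and the NFIA difference of 1.00 ± 0.32 (SE, 4 arrays against 4) had an adjusted p of 0.171 in limma (0.0452 with the replicate number as a block within passage). On this probe Nfia rose with passage by 1.46 ± 0.32 (adjusted p = 0.039, limma). Without the block it thus passed for passage and not for NFIA. A second, dimmer Nfia probe measured -3.88 and -2.99 in PN_control, -1.88 and -0.88 in PN_NFIA, -1.68 and -3.19 in SN_control, and -0.08 and -1.11 in SN_NFIA, an NFIA difference of 1.95. Its passage difference was 0.90, with overlap of primary and secondary arrays. On both probes the NFIA arrays were above the control arrays of the same passage. Whether these probes detect the overexpressed transgene is not given in the sources used here. All 9 neural stem and progenitor markers were above background on all 8 arrays. Of these, Pax6 fell with passage (-2.145 ± 0.30, adjusted p = 0.016, limma) and Slc1a3 rose (1.52 ± 0.35, adjusted p = 0.0433). By the same rule 3.87% of all genes fell and 3.41% rose. For NFIA over both passages 0 of the 9 passed.

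Sequence upstream of the genes is shown first for Chac1 and Asns, and a short window for Trib3, because these were the 3 of the 10 genes whose promoter held a match to a binding motif of ATF4 or its relatives. RefSeq promoters on GRCm38.p6, from 250 bases before to 50 bases after the start, were found for all 10 genes. They were searched on both strands for the C/EBP-ATF response element (CARE) TGATGNAA, the related composite TGACGCAA and the cAMP response element TGACGTCA, none of which overlapped another in these promoters. Capitals mark the matches, and all sequences are written 5′ to 3′ on the strand of the gene. The Chac1 window is chr2:119350992-119351241 (plus strand), the Asns window chr6:7693210-7693459 (minus strand) and the Trib3 window chr2:152344028-152344057 (minus strand).
Chac1: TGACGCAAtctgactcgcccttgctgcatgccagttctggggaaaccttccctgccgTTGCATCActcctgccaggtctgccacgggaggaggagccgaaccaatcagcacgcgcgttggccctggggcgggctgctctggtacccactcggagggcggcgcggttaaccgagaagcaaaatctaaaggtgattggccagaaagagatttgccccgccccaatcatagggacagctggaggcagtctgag
Asns: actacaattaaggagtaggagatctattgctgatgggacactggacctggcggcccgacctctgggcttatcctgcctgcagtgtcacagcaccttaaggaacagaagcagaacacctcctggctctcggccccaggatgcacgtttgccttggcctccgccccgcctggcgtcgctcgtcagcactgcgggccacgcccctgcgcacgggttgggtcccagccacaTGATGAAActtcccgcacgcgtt
Trib3: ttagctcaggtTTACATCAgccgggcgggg
In Chac1 the composite lies at -250 to -243 and a CARE on the opposite strand at -193 to -186, counted from the start. In Asns a CARE lies at -23 to -16, and in Trib3 a CARE on the opposite strand lies at 15 to 22, inside the transcribed part. Of 32851 promoters of the same length, 3.97% held TGATGNAA, 0.49% held TGACGCAA, 1.79% held TGACGTCA and 6.17% held any of these. The promoters of Atf4, Ddit3, Sesn2, Phgdh, Psat1, Psph and Mthfd2 held none of these letters in this window. A match is a description of the sequence, and binding was not measured.

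The comparison of secondary with primary neurospheres over both cell types showed 2 of the 10 genes falling with passage: Chac1 and Sesn2. Across all genes, 3.87% fell and 3.41% rose by the same rule. At an unadjusted p under 0.05, 5 of the 10 were lower in secondary neurospheres (Chac1, Sesn2, Trib3, Asns and Mthfd2) and 0 were higher, where 15.3% of all genes were lower. The median difference of the 10 was -0.54, against -0.08 for all genes. The estimate was negative for 7 of the 10, against 57.4% of all genes: besides those 5 also Atf4 (-0.35) and Ddit3 (-0.16). Phgdh, Psat1 and Psph had positive estimates and did not pass the test. Because the 10 genes were chosen with earlier results of these data known, these shares do not test them as a set.

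**Figure D1:**
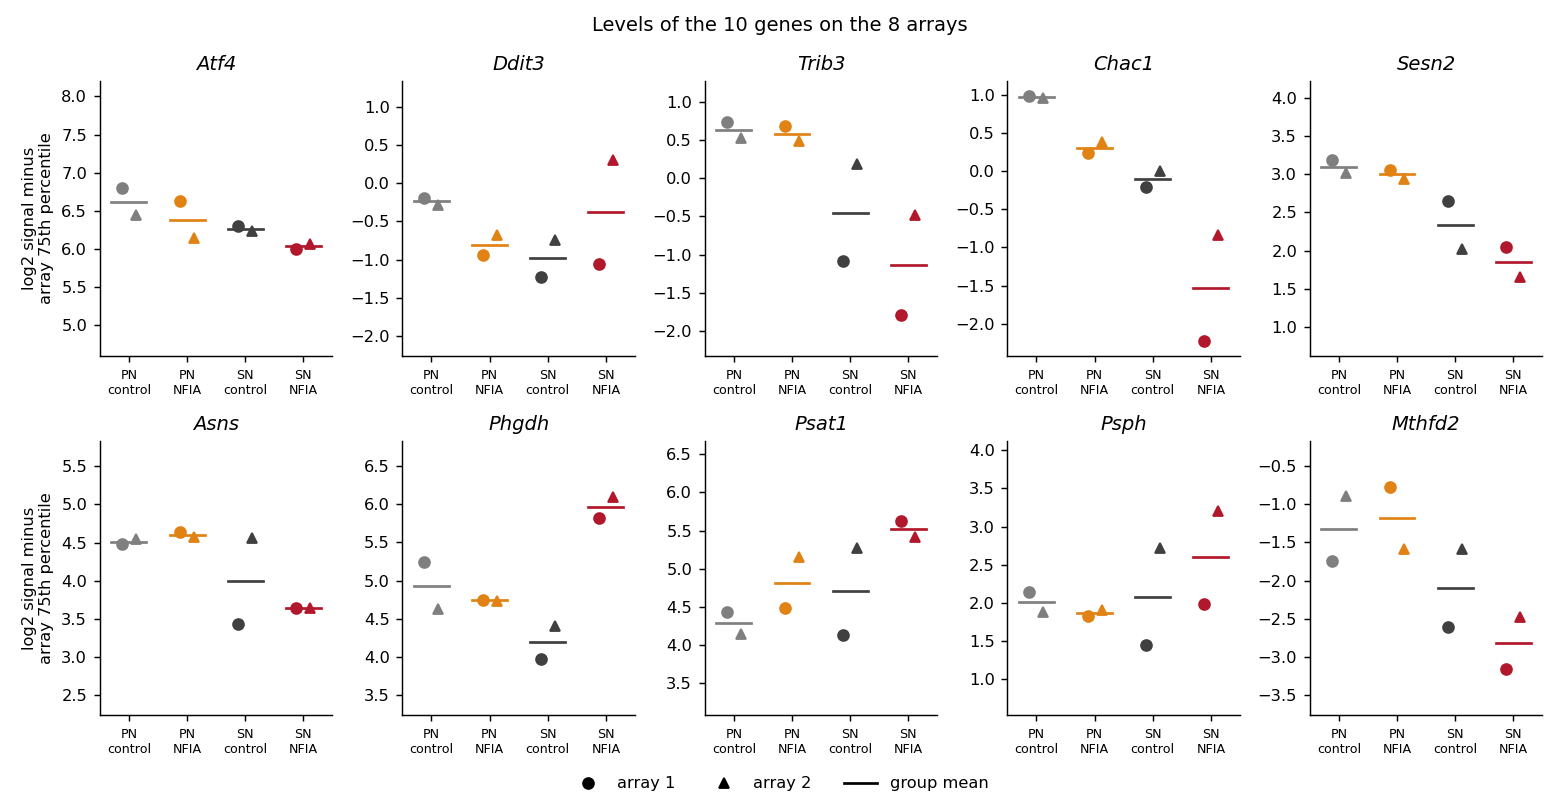
Level of each gene (log2 signal minus the array's 75th percentile, axes of equal span but different position) on the 2 arrays of each group; circles are array 1, triangles array 2 and bars the group mean. Chac1, Trib3 and Sesn2 are lower on every secondary (SN) array than on every primary (PN) array, and Phgdh is highest on both SN_NFIA arrays.

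Atf4, which encodes the transcription factor at the centre of the response, differed little between groups. It measured 6.80 and 6.45 in PN_control, 6.62 and 6.15 in PN_NFIA, 6.30 and 6.24 in SN_control, and 6.01 and 6.07 in SN_NFIA. The secondary arrays lay below the primary arrays of the same cell type, but PN_NFIA 2 lay below both SN_control arrays. The passage difference was -0.35 ± 0.17 (SE; 95% interval -0.76 to 0.05) and the NFIA difference -0.23 ± 0.17 (interval -0.64 to 0.17), and neither passed the test (adjusted p = 0.249 and 0.549, limma). A second, dimmer Atf4 probe ranged from -0.63 to 0.21, with SN_NFIA 2 at 0.03 among its higher arrays, so the 2 probes did not give the same order of groups. Because ATF4 is mainly controlled at translation, the mRNA level is not a measure of its protein.

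Ddit3 encodes CHOP, a C/EBP-family factor that lies downstream of ATF4 and is linked to cell death under prolonged stress. It measured -0.19 and -0.29 in PN_control, -0.94 and -0.68 in PN_NFIA, -1.23 and -0.74 in SN_control, and -1.05 and 0.31 in SN_NFIA. PN_control was higher than PN_NFIA and SN_control, and the 2 arrays of SN_NFIA were further apart than any other pair for this gene. Neither passage (-0.16 ± 0.36, SE; adjusted p = 0.823, limma) nor NFIA (0.02 ± 0.36, adjusted p = 0.985) gave a difference that passed the test, and the interval for NFIA, -0.82 to 0.86, is wide. Leaving out SN_NFIA 2 gave -0.54 for passage, the lowest of the values with 1 array left out.

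Trib3 encodes a pseudokinase that is induced by ATF4 and CHOP and dampens their activity. It measured 0.73 and 0.53 in PN_control, 0.68 and 0.48 in PN_NFIA, -1.09 and 0.19 in SN_control, and -1.79 and -0.49 in SN_NFIA. The 4 primary arrays lay within a narrow band above every secondary array, whereas the arrays of each secondary group differed by about as much as the groups did. The passage difference was -1.40 ± 0.38 (SE; interval -2.27 to -0.53; adjusted p = 0.0629), which missed the test. With 1 array left out it lay between -1.72 (without SN_control 2) and -1.08. The NFIA difference of -0.37 ± 0.38 did not pass either (adjusted p = 0.671).

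Chac1 encodes an enzyme that breaks down glutathione and is among the best known late targets of ATF4 and CHOP. It measured 0.98 and 0.96 in PN_control, 0.23 and 0.38 in PN_NFIA, -0.21 and -0.00 in SN_control, and -2.22 and -0.83 in SN_NFIA. The groups did not overlap and ran down in that order, with the widest spread in SN_NFIA. With passage Chac1 fell by 1.45 ± 0.32 on the log2 scale, 2.74-fold (SE; interval -2.19 to -0.72; adjusted p = 0.0388, limma), and 2.73% of all genes had a lower passage difference. It was lower in NFIA than in control cells by -1.04 ± 0.32 over both passages (unadjusted p = 0.0114, adjusted p = 0.153), and on all 4 arrays relative to the controls of the same passage. The NFIA difference was -0.67 ± 0.43 in primary and -1.42 ± 0.43 in secondary neurospheres, and the difference between these, -0.76 ± 0.61, had an interval of -2.20 to 0.69 (adjusted p = 0.939).

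Sesn2 encodes sestrin 2, a leucine-sensing inhibitor of the growth kinase complex mTORC1. It measured 3.18 and 3.02 in PN_control, 3.06 and 2.94 in PN_NFIA, 2.65 and 2.03 in SN_control, and 2.05 and 1.66 in SN_NFIA. The primary groups overlapped each other and lay above every secondary array. With passage Sesn2 fell by 0.95 ± 0.21 on the log2 scale, 1.94-fold (SE; interval -1.43 to -0.48; adjusted p = 0.0372, limma). The NFIA difference of -0.29 ± 0.21 did not pass the test (adjusted p = 0.521). Every secondary array lay below every primary array for Trib3, Chac1 and Sesn2, 3 of the 10 genes, where this held for 8.03% of all genes.

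Asns encodes asparagine synthetase, the textbook gene of amino acid limitation. It measured 4.48 and 4.54 in PN_control, 4.63 and 4.57 in PN_NFIA, 3.44 and 4.56 in SN_control, and 3.64 and 3.64 in SN_NFIA. The secondary arrays were lower except SN_control 2, which sat among the primary arrays. The passage difference was -0.74 ± 0.26 (SE; interval -1.33 to -0.14; adjusted p = 0.121, limma) and did not pass. With 1 array left out it lay between -1.01 (without SN_control 2) and -0.56.

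Whether Chac1 and Sesn2 passed the test depended on the arrays used. Without SN_control 1 both passed, and without SN_NFIA 1 Chac1 alone passed (-1.10 for Chac1, with Sesn2 at -0.99 and an adjusted p of 0.0772). Leaving out PN_control 1, PN_control 2, PN_NFIA 1, PN_NFIA 2, SN_control 2 or SN_NFIA 2 ended both calls, with differences between -1.65 and -1.35 for Chac1 and between -1.03 and -0.84 for Sesn2.

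**Figure D2:**
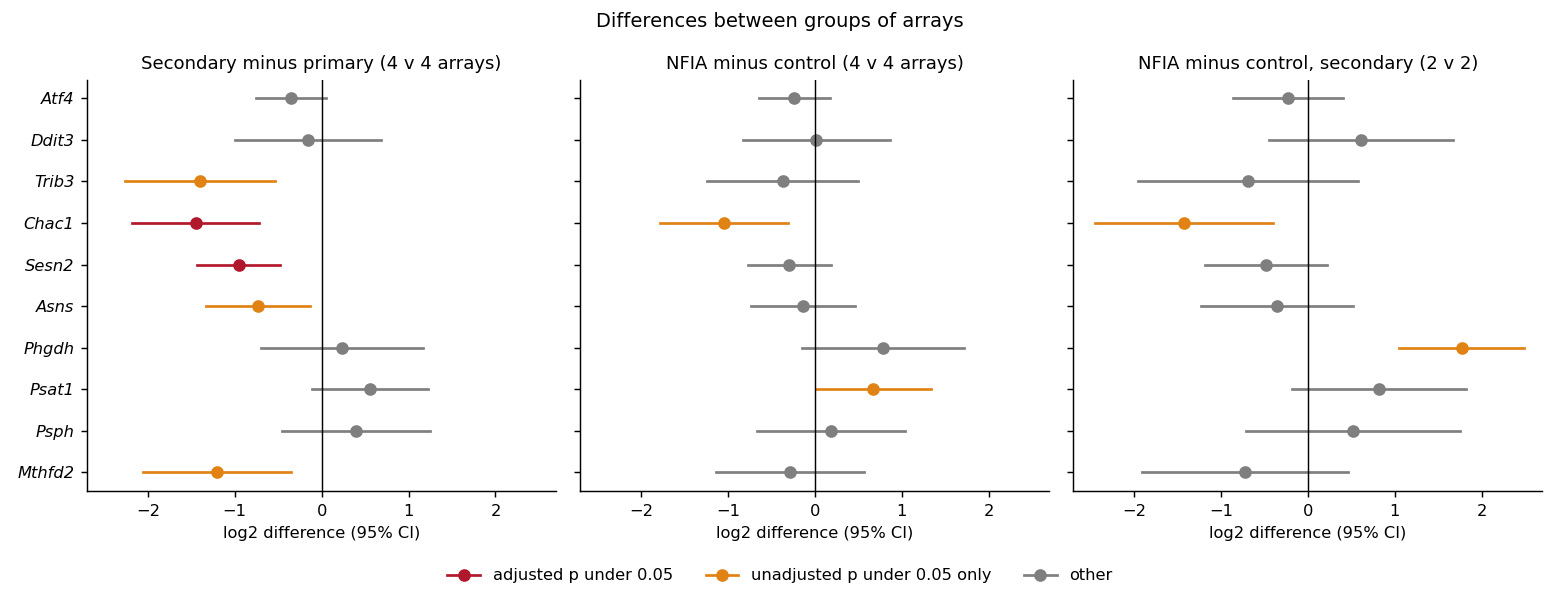
Log2 difference of each gene with its 95% confidence interval for secondary minus primary neurospheres, NFIA minus control over both passages, and NFIA minus control in secondary neurospheres. Chac1 and Sesn2 (red) passed the test for passage; in the middle panel no gene did, and in the right panel Phgdh, at 1.77, has the largest difference with an adjusted p of 0.0532.

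Phgdh, the gene of the first enzyme of serine synthesis, showed another pattern. It measured 5.24 and 4.63 in PN_control, 4.75 and 4.74 in PN_NFIA, 3.97 and 4.41 in SN_control, and 5.82 and 6.10 in SN_NFIA. The SN_NFIA arrays lay above every other array and the SN_control arrays below every other. In secondary neurospheres NFIA cells were higher by 1.77 ± 0.30 (SE; 3.41-fold; interval 1.05 to 2.49), with an unadjusted p of 0.000632 and an adjusted p of 0.0532 in limma, just above the threshold, and 2.95% of all genes had a higher difference. With the replicate number as a block within each passage, which same-numbered arrays bear out, the adjusted p in limma was 0.0351 and Phgdh passed. It also passed after quantile normalization (adjusted p = 0.0431, limma) and after normexp background correction (adjusted p = 0.0308). With 1 array left out the difference lay between 1.55 and 1.99. With arrays by attached file the difference turned negative and did not pass (adjusted p = 0.987, limma).

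In primary neurospheres Phgdh differed by -0.19 ± 0.30 between NFIA and control cells, so the NFIA difference was larger in secondary neurospheres by 1.96 ± 0.43 (SE; interval 0.94 to 2.97). That interaction had an unadjusted p of 0.00256 and an adjusted p of 0.29, and did not pass. Along passage Phgdh was lower in secondary control cells (-0.74 ± 0.30, adjusted p = 0.354) and higher in secondary NFIA cells (1.22 ± 0.30, adjusted p = 0.0895), and its passage difference over both cell types was accordingly small, 0.24 ± 0.40. A second Phgdh probe measured 4.68 and 3.88 in PN_control, 3.88 and 3.84 in PN_NFIA, 3.12 and 3.76 in SN_control, and 5.14 and 5.62 in SN_NFIA. It placed the 4 groups in the same order as the first probe.

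Psat1 encodes the aminotransferase of the second step. It measured 4.44 and 4.15 in PN_control, 4.49 and 5.15 in PN_NFIA, 4.13 and 5.27 in SN_control, and 5.63 and 5.42 in SN_NFIA. NFIA arrays lay above the control arrays of their passage, by a small margin in both cases, and SN_control 2 was higher than both PN_NFIA arrays. The NFIA difference over both passages was 0.67 ± 0.29 (SE; interval 0.01 to 1.34; unadjusted p = 0.0476, adjusted p = 0.276). The passage difference was 0.56 ± 0.29 (adjusted p = 0.264).

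Psph encodes the phosphatase of the last step. It measured 2.14 and 1.89 in PN_control, 1.83 and 1.91 in PN_NFIA, 1.44 and 2.72 in SN_control, and 1.99 and 3.21 in SN_NFIA. The groups overlapped, and in both secondary groups array 2 was the higher one. Differences of 0.40 ± 0.37 for passage and 0.19 ± 0.37 for NFIA did not pass the test (SE; adjusted p = 0.532 and 0.838, limma). Mthfd2 encodes a mitochondrial dehydrogenase of the folate cycle and measured -1.74 and -0.90 in PN_control, -0.77 and -1.59 in PN_NFIA, -2.61 and -1.58 in SN_control, and -3.16 and -2.47 in SN_NFIA. Its SN_NFIA arrays were lower than the primary arrays, while SN_control 2 overlapped them. The passage difference was -1.21 ± 0.37 (SE; interval -2.06 to -0.36; adjusted p = 0.0872, limma), negative like those of the stress-response effectors. The 3 genes of serine synthesis had positive estimates with intervals that included 0. In control cells alone the passage estimate of Phgdh was negative too (-0.74).

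For NFIA over both passages, 0 of the 10 genes passed the test, against 1.97% of all genes. At an unadjusted p under 0.05 there were 2, Chac1 lower and Psat1 higher, where 17.7% of all genes reached that level. In primary neurospheres 0 of 10 passed (0.312% of all genes) and 0 reached an unadjusted p under 0.05 (9.56%). In secondary neurospheres 0 of 10 passed (0.935%) and Chac1 and Phgdh reached the unadjusted level (15.1%). When the NFIA effects of the 2 passages were compared with each other, 0 of 10 passed (0% of all genes) and Phgdh alone reached the unadjusted level (6.75%).

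Passage was also examined within each cell type, with the arrays shared with the comparisons above. In control cells 0 of 10 genes passed (0.863% of all genes), and Chac1, Sesn2 and Phgdh were lower at an unadjusted p under 0.05 (13.5%). In NFIA cells 0 of 10 passed (1.89%), and Chac1, Sesn2, Trib3, Asns and Mthfd2 were lower and Phgdh higher at that level (21.2%). The passage difference in control and NFIA cells, side by side, was -1.07 and -1.83 for Chac1, -0.76 and -1.15 for Sesn2, -1.08 and -1.72 for Trib3, -0.51 and -0.96 for Asns and -0.78 and -1.64 for Mthfd2. For all 5 the interval of the difference between cell types included 0, with adjusted p between 0.939 and 0.966 in limma.

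**Figure D3:**
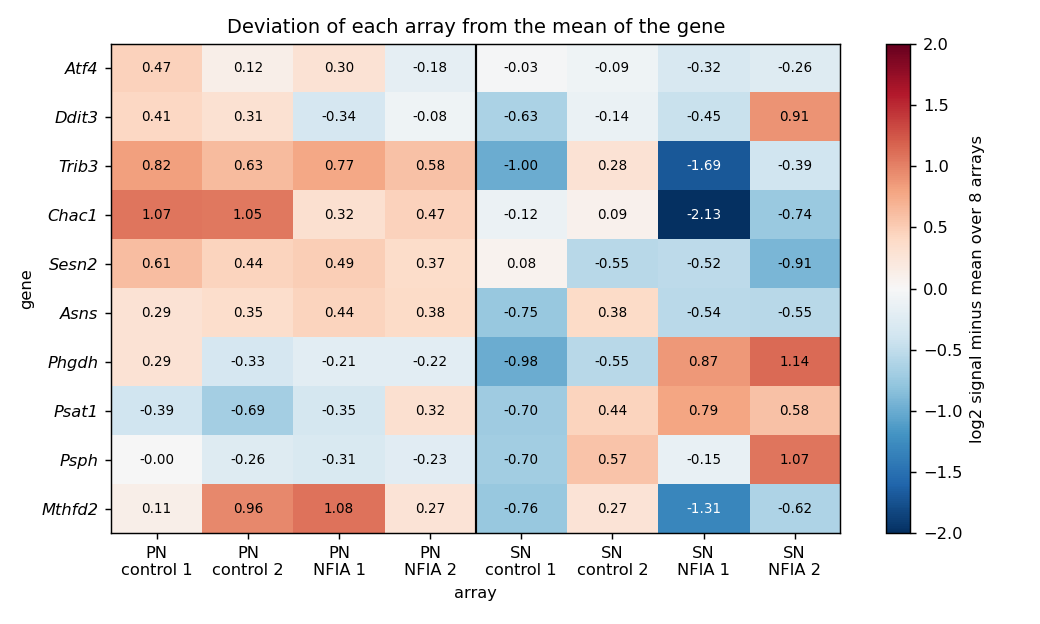
Deviation of each array from the mean of the gene over the 8 arrays (log2; red above, blue below; the black line parts primary from secondary arrays). Trib3, Chac1, Sesn2 and Asns are above their mean on all 4 primary arrays, and Chac1 on SN_NFIA 1 is the lowest value at -2.13.

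The 10 genes also varied between the arrays of 1 group. Array 2 was higher than array 1 for 8 of the 10 genes in SN_control and for 7 in SN_NFIA, against 51.9% and 46.1% of all genes. Both held together for 6 of the 10, against 32.5% of all genes. The median size of the difference was 0.82 for the 10 genes in SN_control, against 0.47 for all genes, and 0.23 in PN_control, against 0.31. Trib3 and Psph had the same step in both secondary groups (1.28 and 1.30 for Trib3, 1.27 and 1.22 for Psph), whereas Asns had it in SN_control (1.13) and not in SN_NFIA (-0.01).

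The mean profile of Ddit3, Trib3, Chac1, Asns and Sesn2 was most like that of Eif2a (Pearson r = 0.984 over the 8 arrays), 4930503L19Rik (0.983), Mrpl19 (0.98), Gpr89 (0.977) and Scube3 (0.976). Eif2a encodes an initiator tRNA-binding factor and is not the gene of the eIF2 subunit that the stress kinases phosphorylate. Trib3 and Chac1 followed that mean closely (0.975 and 0.952), Asns and Sesn2 less so (0.845 and 0.732), and Ddit3 weakly (0.367). Each of these genes is part of that mean. Chac1 and Trib3 had the widest ranges over the arrays among them (3.20 and 2.52), so their high r is partly built in. The mean of Phgdh, Psat1, Psph and Mthfd2 was most like Kcns3 (0.975), Mfsd14b (0.966), 2410006H16Rik (0.966), Fars2 (0.961) and Ndufb2 (0.959), and Mthfd2 had a correlation of 0.108 with the mean it is part of. These correlations describe 8 arrays that share 4 groups, and the arrays differ in depth of signal.

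Related genes of the response were counted in lists. Of 21 genes of ATF4-driven transport and metabolism 18 were tested, of which 2 fell and 1 rose with passage (3.87% and 3.41% of all genes), with a median of -0.48. Slc1a5 and Slc38a2, carriers of neutral amino acids such as glutamine, differed by -1.42 ± 0.24 and -0.86 ± 0.19 (SE; adjusted p = 0.0229 and 0.0395, limma). Nupr1, a small stress-induced chromatin protein, rose by 2.79 ± 0.34 (adjusted p = 0.0134), and by 3.24 ± 0.45 within control cells (adjusted p = 0.0348, where 0.863% of all genes passed). Slc7a3, a carrier of cationic amino acids, fell by 2.07 ± 0.36 with passage in NFIA cells (adjusted p = 0.0448, where 1.89% of all genes passed). In control cells Slc7a3 measured 0.69 and 0.35 at the primary and 0.42 and 1.19 at the secondary stage, a difference of 0.29 ± 0.36 (adjusted p = 0.769). With NFIA over both passages 0 of 18 passed, against 1.97% of all genes, and 3 were higher and 2 lower at an unadjusted p under 0.05, which 17.7% of all genes reached. The smallest p belonged to Gpt2, an alanine aminotransferase, at 1.35 ± 0.30 (adjusted p = 0.0741), and with the block within passage 1 of 18 passed: the stress cytokine gene Gdf15, at 1.60 ± 0.48 without the block (adjusted p = 0.149 without and 0.0463 with it). Gdf15 on SN_control 1 (-3.98) lay below the dimmest spot well above background on that array (-3.14).

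Most of these calls did not hold with each array left out. The call of Slc38a2 held with SN_control 1 left out and with none of the other 7 left out (highest adjusted p 0.131), that of Slc1a5 without SN_control 1, SN_control 2 or SN_NFIA 2 (highest adjusted p 0.0797), and that of Slc7a3 in NFIA cells without SN_control 1 or SN_control 2 (highest 0.303). Nupr1 over both cell types lost its call without PN_NFIA 1 (0.0521), and in control cells kept it without SN_control 1, SN_NFIA 1 or SN_NFIA 2 (highest 0.231). With no filter on dim probes the calls of Slc38a2 (0.058), Slc7a3 in NFIA cells (0.0812) and Nupr1 in control cells (0.0717) were lost, and with the mean of a gene's probes those of Slc1a5 (0.055) and the serine racemase gene Srr (0.0822).

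The 20 cytosolic aminoacyl-tRNA synthetases, which charge tRNAs with amino acids, had negative estimates in both overall comparisons. The passage difference was negative for 20 of 20, with a median of -0.35, and 1 passed, where 3.87% of all genes fell: Eprs fell by 1.27 ± 0.26 (adjusted p = 0.0325, limma). That call held with SN_control 1 or SN_control 2 left out and with none of the other 6 arrays left out (highest adjusted p 0.0984), and was lost with no filter on dim probes (0.0553). The NFIA difference was also negative for 20 of 20, with a median of -0.42, and 0 passed, against 1.97% of all genes (5 were lower at an unadjusted p under 0.05, which 17.7% of all genes reached in either direction). Sars had the smallest p, at -0.63 ± 0.15 (adjusted p = 0.0833). Of all genes, 57.4% were negative for passage and 55.4% for NFIA. Quantile normalization left 19 of 20 negative for passage, and with 1 array left out 19 or 20 were negative in each comparison. With arrays by attached file 17 of 20 were positive for passage and 15 for NFIA, and with groups by source name 18 were positive for NFIA.

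Of 17 genes of serine, glycine and one-carbon metabolism 3 rose with passage. Cbs, which joins serine to homocysteine, rose by 1.78 ± 0.37, Aldh1l1, a folate enzyme that is also an astrocyte marker, by 2.56 ± 0.57, and the serine racemase gene Srr by 0.88 ± 0.18 (SE; adjusted p = 0.034, 0.0401 and 0.032, limma). Shmt2, the mitochondrial enzyme that turns serine into glycine, fell by 0.87 ± 0.16 (adjusted p = 0.0251). None of these 4 calls held without PN_control 1, PN_control 2, PN_NFIA 1, SN_NFIA 1 or SN_NFIA 2 (highest adjusted p 0.125, for Aldh1l1), and with no filter on dim probes those of Cbs, Aldh1l1 and Srr were lost (0.056 to 0.058). Cbs was also the gene of this list that passed for NFIA: it measured 0.01 and 0.21 in PN_control, 1.94 and 3.64 in PN_NFIA, 1.58 and 2.30 in SN_control, and 4.77 and 4.28 in SN_NFIA. It rose with NFIA by 2.63 ± 0.37 (adjusted p = 0.018), a call lost without PN_control 1, PN_control 2, SN_control 1 or SN_NFIA 1 (adjusted p 0.0525 to 0.0754). With the block within passage Aldh1l1 also passed for NFIA, at 1.77 ± 0.57 without the block (adjusted p = 0.174 without and 0.0462 with it). Shmt2, next to Mthfd2 in the mitochondrial pathway, was at -0.52 ± 0.16 (adjusted p = 0.146).

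Among 13 kinases, partner factors and feedback genes of the response 0 passed for passage or NFIA. At an unadjusted p under 0.05, 1 was lower with passage, against 15.3% of all genes, and 3 were higher with NFIA, where 17.7% of all genes passed in either direction. With the block within passage 1 of the 13 passed for NFIA: Atf3, a stress-induced transcription factor, at 2.18 ± 0.78 without the block (adjusted p = 0.209 without and 0.0287 with it, limma). Atf3 lay at -4.9 on PN_control 2 and -5.3 on SN_control 1, below the dimmest spot well above background on those arrays (-4.3 and -3.1). No control group therefore met the filter for Atf3, and the size of its difference depends on that background floor. Atf5 had the smallest p for passage, at -0.55 ± 0.16 (adjusted p = 0.0771, limma), and the eIF2 kinase gene Eif2ak2, also an interferon-induced gene, for NFIA, at 0.92 ± 0.22 (adjusted p = 0.0842). Of 15 genes of the endoplasmic reticulum unfolded protein response 0 passed in either comparison (at an unadjusted p under 0.05, 1 was higher with passage, against 11% of all genes, and 0 reached it for NFIA, against 17.7%). The median passage difference was 0.08, and it turned negative without PN_control 2 (-0.05), SN_control 2 (-0.03) or SN_NFIA 2 (-0.06). Atf6, the smallest p of that list, was at 0.50 ± 0.18 for passage (adjusted p = 0.13).

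**Figure D4:**
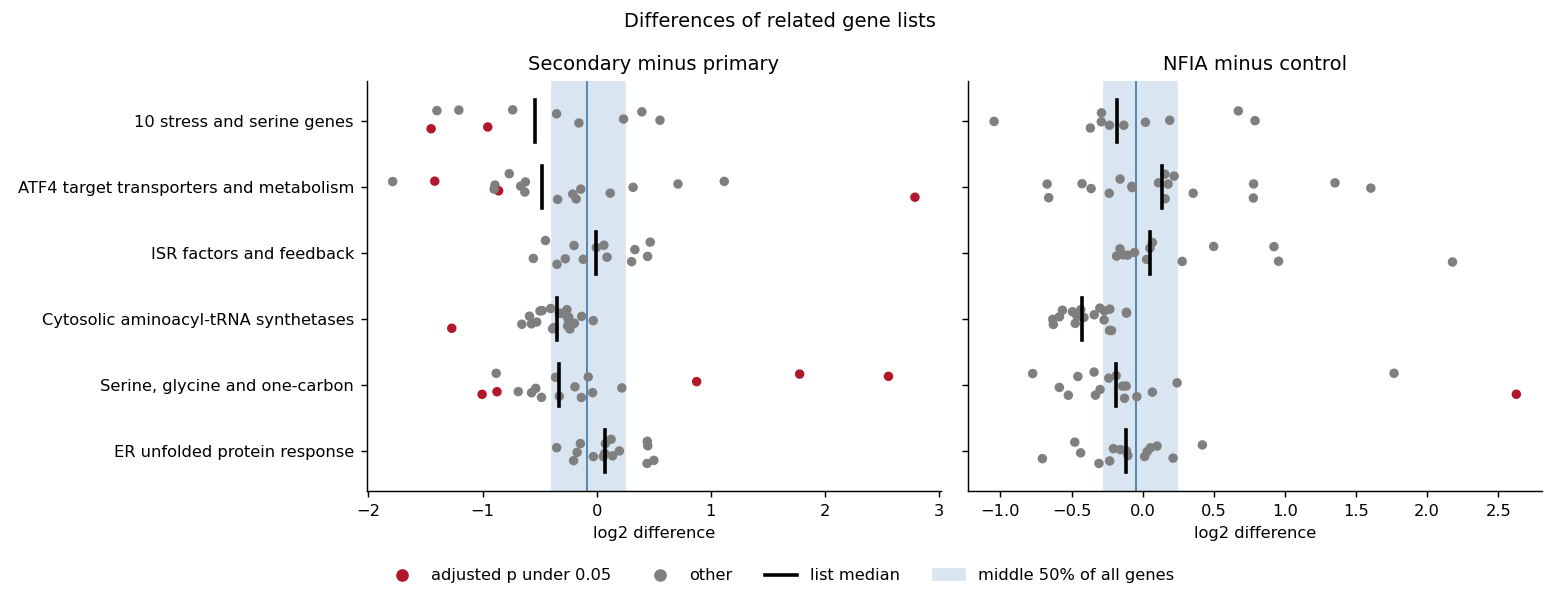
Log2 difference of every tested gene of each list for secondary minus primary neurospheres (left) and NFIA minus control (right); red points passed the test, black bars are list medians and the shaded band holds the middle 50% of all genes. The aminoacyl-tRNA synthetases lie left of 0 in both panels, with medians of -0.35 and -0.42 (19 of 20 for passage after quantile normalization, and mostly right of 0 with arrays by attached file).

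Summed levels of markers of other cell types differed between arrays, while few single markers passed the test over both passages or both cell types. With passage 3 of 8 astrocyte markers rose, 2 of 8 neuron markers fell, 1 of 7 pluripotency markers fell and 2 of 6 mesenchymal markers rose. By the same rule 3.41% of all genes rose and 3.87% fell. Among the 3 astrocyte markers was Gfap, which on every primary and SN_control array lay below the dimmest spot well above background. Gfap met the filter only through SN_NFIA (-3.28 and -0.375), so the size of its rise depends on that floor. With NFIA over both passages 1 of 8 astrocyte and 1 of 6 mesenchymal markers and 1 of 4 tested endoderm markers rose, and 0 of 8 neuron and 0 of 7 pluripotency markers passed limma's test (4 and 0 had an unadjusted p under 0.05). Of all genes 1.97% passed for NFIA. More markers passed for passage within 1 cell type. In NFIA cells 5 of 7 pluripotency markers fell and 0 of 6 mesenchymal markers passed, against 1.89% of all genes. In control cells 3 of 6 mesenchymal markers rose and 0 of 7 pluripotency markers passed, against 0.863%. The summed level of 8 astrocyte markers, in units of the array's 75th percentile, was 13.5 to 15.6 in PN_control, 61.6 to 195 in PN_NFIA, 50 to 212 in SN_control and 477 to 827 in SN_NFIA, with 6, 7, 5 to 7 and 8 of them above background. The 8 neuron markers summed to 168 to 173 in PN_control, 114 to 131 in PN_NFIA, 84.7 to 201 in SN_control and 62.9 to 70.4 in SN_NFIA, with 7 or 8 above background. The 7 pluripotency markers, all above background on each array, summed to 37.1 to 39.2, 43.6 to 74.6, 20.7 to 35.5 and 4.88 to 9.53 in the same order of groups. The 6 mesenchymal markers summed to 3.05 to 6.1, 14.7 to 16.2, 47.5 to 80.2 and 33 to 34.3, with 5 or 6 above background, and the 7 endoderm markers lay between 6.83 and 18.4, with 1 to 7 above background. Of the 4 blood and microglia markers 3 had a probe. Ptprc and Aif1 were above background on no array, and 1 marker was above it on every array. SN_NFIA thus had the highest astrocyte sum and the highest Phgdh, and the lowest pluripotency sum and the lowest Chac1; the part of cell type makeup in the differences of the 10 genes was not tested, and in RNA from many cells a change in the share of a cell type and a change in RNA per cell cannot be told apart.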

How the data were processed

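The deposited scanner files hold background-subtracted spot intensity values, made by Feature Extraction 10.5.1.1 per the file headers (10.7.3.1 per the submitters' processing notes), and flags of other kinds (0 or 1) deposited for background and outliers. RNA (50 ng) was labelled with Cy3 per the labels. The value table deposited by the authors holds log2 values centred on each probe's median (largest probe median 0.000245); it was used to assign files to samples and as an alternative.

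Non-control spots numbered 59305 of 62976, with 0 saturated; 126 probes were left out by outlier flags, and 26056 of 55681 probes received a symbol. A probe was kept where both arrays of some group had it well above background, and each gene was read from its brightest kept probe. limma 3.58.1 (R 4.3.3) was fitted to all 8 arrays, with passage and NFIA as additive terms or with 4 group means; it was tested on simulated data. The 10 genes and the lists were chosen with earlier results of these data known. All 10 genes are named, and of each list those past the test (at most 4 per comparison, by p) or at most 2 with the smallest p. 1 gene that meets this rule is not reported here. Replicate numbers paired NFIA with control samples within a passage (correlation of same-numbered deviations 0.445 and 0.484) and not across passages (-0.188 to 0.042). Alternatives, 18 in all, changed background correction, scaling, filter, probe choice, array assignment, grouping, block and arrays included; array numbers limit precision.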

Additional observations from a re-analysis of the deposited data

Results flagged for a closer look

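Phgdh is singled out because its passage difference ran in opposite directions in the 2 cell types without overlap of the arrays. The share of all genes that did the same was not counted, so how unusual this is cannot be said. It was 1.22 in NFIA cells (4.75 and 4.74 in PN_NFIA, 5.82 and 6.10 in SN_NFIA) and -0.74 in control cells (5.24 and 4.63 in PN_control, 3.97 and 4.41 in SN_control). The test of the difference itself, 1.96 ± 0.43 (SE), gave an adjusted p of 0.29 in limma and did not pass; over the alternatives the adjusted p lay between 0.143 and 1. The 2 arrays of a group allow no test for single arrays that stand apart.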

How the results depend on the processing

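Settings that changed the number of the 10 genes past the test, or the number of all genes past it by over 1.5 times, are given here. With passage over both cell types, 2 of the 10 genes and 1004 of all genes passed; quantile normalization gave 1 of the 10 (Chac1; Sesn2 at an adjusted p of 0.0527). No filter on dim probes gave 0 and 475, arrays by attached file 0 and 0, and PN_NFIA 1 and SN_NFIA 2 left out together 0 and 0. With 1 array left out, 0 to 2 of the 10 and 58 to 1667 genes passed. By attached file, the passage differences of Chac1 (0.2636) and Sesn2 (0.1296) turned in sign, and the sign of 11 of the 19 values with an unadjusted p under 0.05 changed; groups by source name turned 2 of 2.

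For NFIA over both passages (271 genes), 143 passed without the filter, 0 by attached file, 0 by source name, 67 without PN_NFIA 1 and SN_NFIA 2, and 33 to 355 with 1 array left out. For NFIA in primary neurospheres (43 genes), normexp correction, chosen after seeing the data, gave 8, quantile normalization 19, and no filter, attached files and both named arrays left out 0 each; the replicate block within passage gave 69, and 1 array left out 0 to 88. For NFIA in secondary neurospheres (129 genes, 0 of the 10), no filter gave 22, attached files and both named arrays left out 0 each, the replicate block across passages 75 and within passage 646, and 1 array left out 7 to 455. Of the 10 genes, Phgdh alone then passed, 1 under each of normexp, quantile normalization and the replicate block within passage, and 0 or 1 with an array left out. The block within passage was fitted to the NFIA comparisons only, where it made no other call among the 10 genes. It therefore did not test the passage calls of Chac1 and Sesn2.

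For passage in control cells (119 genes) and in NFIA cells (260), no filter gave 52 and 70, attached files and both named arrays left out 0, and 1 array left out 8 to 444 and 0 to 747. For the contrast of the NFIA effects at the 2 passages (0 genes in limma, 931 at an unadjusted p under 0.05), 1 array left out gave 0 to 30. An arm with 1 array left was taken to vary like the other groups. The causes were not tested. All probes of the 10 genes were well above background on all arrays.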
